A study of Homo sapiens with 6 samples.

Results

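Orphan, adhesion and lipid G protein-coupled receptors, together with the regulators of G protein signalling, were compared between 2 groups of IGR37 melanoma cells. The genes were chosen by symbol alone: receptors named GPR or ADGR, the prostanoid, P2Y, sphingosine 1-phosphate, lysophosphatidic acid and protease-activated receptors, and the RGS proteins, with 1 GPR symbol left out by the rule. Of 12558 gene rows in the authors' deposited table, 53 carried such a symbol: 20 GPR-named genes, 9 adhesion receptors, 12 RGS genes, 7 lysophospholipid receptors, 2 prostanoid receptors, 1 P2Y receptor and 2 protease-activated receptors. IGR37 is an established human melanoma line, and all 6 samples carried a transgene for beta-catenin (CTNNB1) that doxycycline switches on, which has the nuclear localisation signal of SV40 large T antigen at its N-terminus and was delivered by piggyBac transposition and selected with G418. One group of 3 samples had no doxycycline, and the other group of 3 had 20 ng/ml doxycycline for 24 h. The labels do not say if the selected line was 1 clone, or if samples of a group came from separate cultures; p-values therefore cover the spread among these samples alone, and that spread may be technical.

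The only values are those of the authors' deposited table: a log2 fold change, an average log2 CPM (a read count scaled to the size of its library) taken over all libraries, and an edgeR F test with its FDR. It holds no value per library, so replicate values, their SD and the depth per library cannot be shown, and replicate error enters through the F test. Its header names neither group nor which was subtracted from which. It is read here as the doxycycline comparison, since it is named for this cell line and transgene. That reading is uncertain: 50.9% of all genes called and melanocyte markers up to 102-fold apart are large differences for induction of a single gene over 24 h. Since the order is not stated, higher stands for the positive and lower for the negative side, and on this scale CTNNB1, the induced gene, was 3.89-fold higher per the authors' deposited table (log2 1.96, edgeR FDR 1.24e-08). A gene was called when its edgeR FDR was under 0.05. The standard error of a log2 fold change was approximated as its size divided by the square root of F, and the intervals below are approximate 95% intervals made from it. A mean level of each group in CPM was implied from the average CPM and the fold change, as an approximation, and is called the implied level.

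G protein-coupled receptors span the membrane and pass a signal from a ligand outside the cell to heterotrimeric G proteins inside it. Gs raises and Gi lowers cyclic AMP, Gq activates phospholipase C, and G12 and G13 activate the GTPase RhoA. RGS proteins speed up GTP hydrolysis by G alpha subunits and so shorten the signal. Adhesion receptors carry a large extracellular part that binds matrix or neighbouring cells, and orphan receptors have no agreed ligand. In pigment cells, cyclic AMP drives transcription of MITF, the factor that governs melanocyte identity.

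The 2 sides of the table differed widely and the receptor genes differed with them. Of the 53 genes, 38 were called per the authors' deposited table, 17 higher and 21 lower, which is 71.7% against 50.9% of all genes. The 17 higher genes are 32.1% of the members, against 24.5% of all genes called higher, and the 21 lower genes are 39.6%, against 26.4%. With a change of at least 2-fold as well, 33 members were called, 15 higher and 18 lower. That is 62.3% against 28.9% of all genes (13.3% higher and 15.6% lower). The 18 lower members include PTGFR, GPR39 and F2RL1, read as having no reads in 1 group and given no fold. The share of all genes counts such genes too. The median log2 fold change of the members was -0.02, beside -0.01 for all genes. The median size of the change regardless of sign was 1.74 against 0.58. Without genes read as having no reads in 1 group it was 1.58 against 0.57. The members were weakly expressed, with a median average level of 6.43 CPM against 22.3 CPM for all genes and a range from 1.09 CPM for ADGRB1 to 140 CPM for GPR107. By average log2 CPM, 6 of 8 members under 1 were called (75.0%, against 47.0% of all genes at that level). From 1 to 3 it was 11 of 20 (55.0% against 45.9%). From 3 to 5 it was 14 of 17 (82.4% against 49.1%), and at 5 or more 7 of 8 (87.5% against 55.7%). Over the same levels the median size was 2.65, 1.49, 1.74 and 1.38 for members, against 1.45, 0.91, 0.55 and 0.45 for all genes. The share with at least 2-fold was not compared by level.

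**Figure D1:**
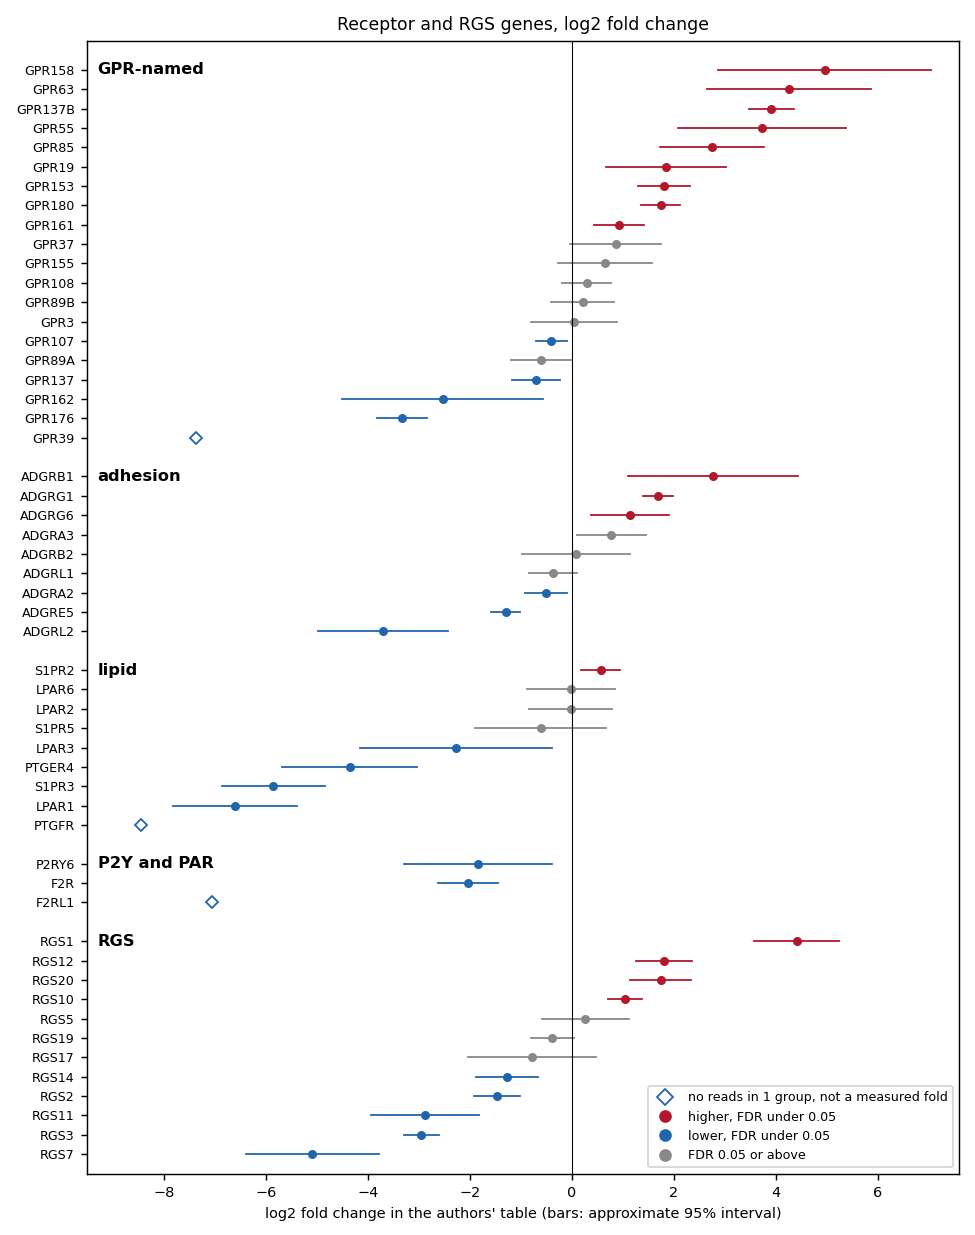
Log2 fold change of the 53 receptor and RGS genes as deposited, by family. Points are genes and bars approximate 95% intervals. Red and blue mark an FDR under 0.05 and grey the rest. Open diamonds mark the 3 genes read as having no reads in 1 group. The called prostanoid, lysophospholipid, P2Y and protease-activated receptors lie on the lower side except S1PR2. GPR-named genes run from 4.96 for GPR158 to -3.33 for GPR176 among those with a measured fold.

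Centring on the 59 ERCC spike-in RNAs, synthetic transcripts whose median log2 fold change was 0.57, moved every value down by that amount. That median was taken as exact, so its own error does not enter the re-centred tests. The members then split into 13 higher and 24 lower, and all genes into 1423 higher and 6564 lower, against 3080 and 3318 as deposited. S1PR2, ADGRG6, GPR161 and GPR19 were then no longer called higher, and S1PR2 changed sign. The edgeR tests borrowed spread across genes, with 14.03 denominator degrees of freedom; with 4, the number left by 6 samples in 2 groups, 13 higher and 15 lower members were called, and ADGRA2, ADGRB1, ADGRG6, GPR107, GPR137, GPR162, GPR19, LPAR3, P2RY6 and S1PR2 were no longer called. The last 500 bases of 6 members overlap exons of another gene (ADGRA2, ADGRE5, GPR37, GPR39, GPR162 and RGS11), so reads there may be shared.

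Cell lineage markers also differed between the groups. All 8 melanocyte markers (MLANA, PMEL, TYR, TYRP1, DCT, SOX10, MITF and S100B) were higher per the authors' deposited table, by 18.6-fold to 102-fold, with a summed implied level of 7665 CPM on the positive and 116 CPM on the negative side. Of 8 fibroblast markers 6 were in the table, 5 of them lower and LUM higher, with summed implied levels of 16.6 and 412 CPM. Among 5 epithelial markers in the table, KRT8, KRT18 and TP63 were lower and CDH1 and ESRP1 higher. Of 8 blood and endothelial markers 2 were listed, PECAM1 and CDH5, both lower, with summed implied levels of 1.49 and 10.1 CPM. The part of these shifts in the receptor results was not tested, and in bulk RNA fewer cells of a type and less RNA per cell cannot be told apart.

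The lower side held nearly all called genes of the prostanoid, sphingosine 1-phosphate and lysophosphatidic acid receptor families. Prostanoid receptors bind arachidonic acid products such as prostaglandin E2, and sphingosine 1-phosphate and lysophosphatidic acid are lysophospholipids that act through the S1PR and LPAR families. Of the 9 genes of these families, 5 were called lower and 1 higher, S1PR2. Of all genes, 26.4% were called lower and 24.5% higher.

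LPAR1, a lysophosphatidic acid receptor coupled to Gi, Gq and G12/13, was 97.6-fold lower per the authors' deposited table (log2 -6.61, interval -7.83 to -5.39, edgeR FDR 2.69e-07). Its implied level was 16.4 CPM on the negative and 0.168 CPM on the positive side. Genes read as having no reads in the positive group had implied levels there of 0.0354 to 0.0560 CPM. The fold of LPAR1 thus rests on very few reads. S1PR3, a receptor coupled to Gi, Gq and G12/13, was 57.7-fold lower per the authors' deposited table (log2 -5.85, interval -6.85 to -4.85, edgeR FDR 1.23e-07), with implied levels of 30.3 and 0.525 CPM. PTGER4, the Gs-coupled EP4 receptor for prostaglandin E2, was 20.5-fold lower per the authors' deposited table (log2 -4.36, interval -5.67 to -3.04, edgeR FDR 3.86e-05), from 6.84 to 0.333 CPM implied. PTGFR, the prostaglandin F receptor, had an average of 6.43 CPM per the authors' deposited table (edgeR FDR 4.18e-06). From the degrees of freedom of its test it was read as having no reads in 1 group, so it is given no fold. Genes read in this way were 3 of the 53 members (PTGFR, GPR39 and F2RL1, all lower), beside 1.64% of all genes.

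Other members of the lipid families shifted less or were not called. LPAR3 was 4.82-fold lower per the authors' deposited table (edgeR FDR 0.0430) at an average of only 1.26 CPM, with an interval on the log2 scale from -4.15 to -0.39. S1PR2, which couples strongly to G12/13, was 1.48-fold higher per the authors' deposited table (log2 0.56, edgeR FDR 0.0180), and centring on the spike-ins turned this to -0.01. The intervals of the uncalled receptors included 0: -0.84 to 0.80 for LPAR2, -0.87 to 0.86 for LPAR6 and -1.89 to 0.67 for S1PR5, on the log2 scale computed from the authors' deposited table. S1PR2 and S1PR5 lie 281 kb apart on chromosome 19.

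The enzymes that make, move and clear these lipids were measured in the same table. Of 13 genes of prostanoid synthesis, transport and breakdown, 5 were lower and 2 higher, with a median log2 fold change of -0.93; the 53.8% called is close to the 50.9% of all genes. AKR1C3, a prostaglandin F synthase and steroid reductase, was 113-fold lower per the authors' deposited table (edgeR FDR 6.65e-08). SLCO2A1, the prostaglandin uptake carrier, was 23.6-fold and the cyclooxygenase PTGS1 10.2-fold lower per the authors' deposited table. Their implied levels on the positive side were 0.281 CPM (AKR1C3), 0.201 CPM (SLCO2A1) and 0.373 CPM (PTGS1). These folds rest on very few reads. PTGR1 was 3.53-fold lower, and HPGD, which inactivates prostaglandins, was 20.9-fold higher per the authors' deposited table (edgeR FDR 1.70e-05). The implied level of HPGD on the negative side was 0.302 CPM, so its fold also rests on very few reads. The inducible cyclooxygenase PTGS2 had a log2 fold change of -1.49 (edgeR FDR 0.0795) per the authors' deposited table.

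Among 10 genes on the S1P and LPA list 6 were lower and 2 higher (median -0.93), or 80.0% called against 50.9% of all genes. The phosphatases PPAP2B (PLPP3) and PPAP2C (PLPP2), which dephosphorylate lysophosphatidic acid and S1P, were 9.45-fold and 3.79-fold lower per the authors' deposited table, and the lipid exporter ABCA1 was 14.2-fold lower. SPHK1, a kinase that makes S1P, was 2.60-fold lower and its relative SPHK2 1.77-fold higher per the authors' deposited table (edgeR FDR 8.27e-05 and 0.00394); SPHK2 was no longer called once centred on the spike-ins. SGPL1, the S1P lyase, was 2.02-fold lower per the authors' deposited table. ENPP2, the secreted enzyme autotaxin that makes lysophosphatidic acid, had a log2 fold change of -0.30 (edgeR FDR 0.525) per the authors' deposited table. LPP, the second higher gene, encodes a LIM-domain adhesion protein and not a lipid enzyme, although the list held it.

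The 2 protease-activated receptors and the single P2Y receptor in the table were all called lower, as were 26.4% of all genes. Protease-activated receptors are switched on when a protease cuts their N-terminus and unmasks a tethered ligand. F2R, the thrombin receptor PAR1, was 4.10-fold lower per the authors' deposited table (log2 -2.03, interval -2.62 to -1.45, edgeR FDR 2.31e-05), with implied levels of 35.5 and 8.67 CPM. F2RL1, the trypsin receptor PAR2, was read as having no reads in 1 group. It had an average of 2.83 CPM and an edgeR FDR of 0.000133 per the authors' deposited table. Both lie on the plus strand of chromosome 5 (hg38), F2R at 76716126 to 76735770 and F2RL1 at 76818933 to 76835315, with a gap of 83.2 kb. P2RY6, a Gq-coupled receptor for UDP, was 3.60-fold lower per the authors' deposited table (edgeR FDR 0.0341) with a wide log2 interval from -3.30 to -0.40.

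Genes around these receptors were measured in the same table. The next list held coagulation and plasminogen factors, their inhibitors and receptors and MMP1. All 9 of its members found in the table were called, against 50.9% of all genes. They were 8 lower and 1 higher, with a median log2 fold change of -4.19. F3, the tissue factor that starts thrombin generation, was 55.7-fold lower per the authors' deposited table (edgeR FDR 5.72e-09). MMP1, a collagenase that can cleave PAR1, was 30.8-fold lower per the authors' deposited table. The one higher member, PLAT, encodes tissue plasminogen activator and was 2.30-fold higher per the authors' deposited table. Of 10 genes that release, degrade or sense nucleotides and adenosine, 3 were higher and 3 lower (median 0.17). ADORA1 and ADORA2B, adenosine receptors, were 16.6-fold and 10.7-fold lower per the authors' deposited table, and NT5E (CD73), which makes adenosine, was 11.8-fold lower. P2RX7, an ATP-gated ion channel, was 3.05-fold higher per the authors' deposited table (edgeR FDR 0.00234), while its relatives P2RX4 and P2RX5 had log2 fold changes of 0.33 and 0.20 (edgeR FDR 0.268 and 0.476). SLC17A9, the vesicular nucleotide carrier, was 5.46-fold and ENTPD1 (CD39), which degrades ATP, 5.63-fold higher per the authors' deposited table, the latter at an average of 1.34 CPM.

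**Figure D2:**
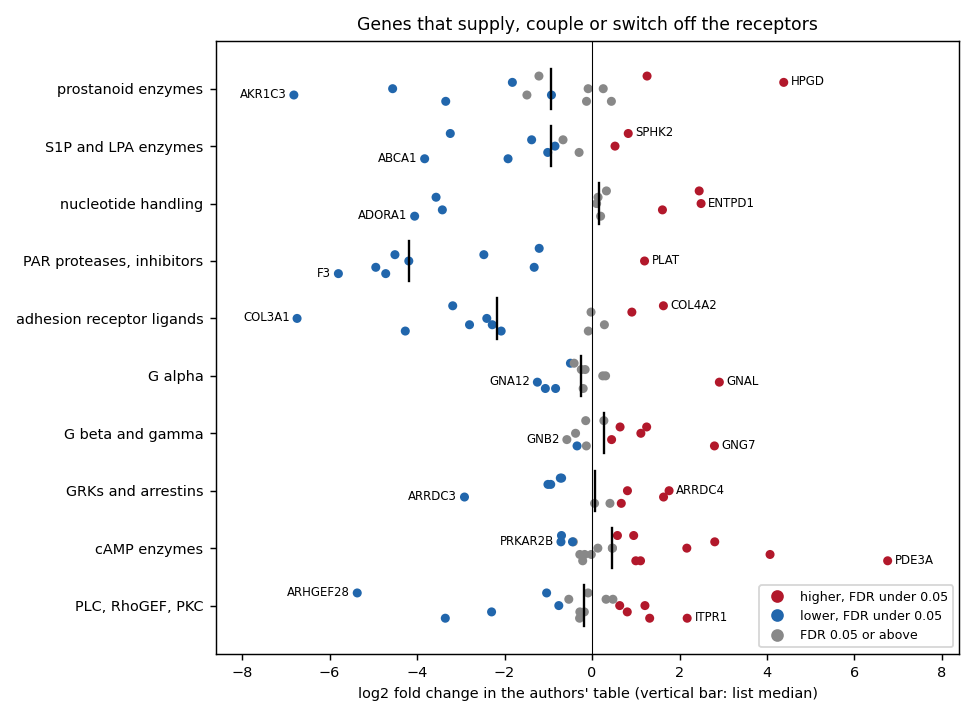
Log2 fold changes of genes that supply, couple or switch off the receptors; each point is a gene of the named list, coloured by its call, and the vertical bar is the list median. The factors of protease-activated receptors have a median of -4.19 and the adhesion receptor ligands of -2.18, while the medians of the G alpha and of the G beta and gamma genes are -0.25 and 0.27.

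GPR-named genes were called on both sides. Of 20 genes, 9 were called higher, 5 lower and 6 neither, with a median log2 fold change of 0.76. The shares were 45.0% higher and 25.0% lower, against 24.5% and 26.4% of all genes, so the lower share was near that of all genes. Centred on the spike-ins the split was 7 higher and 6 lower. With 4 denominator degrees of freedom, and also at an FDR under 0.01, it was 8 higher and 2 lower. With a change of at least 2-fold it was 8 higher and 3 lower.

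GPR137B had the smallest p among the GPR-named genes. GPR137B is a multi-spanning protein of the lysosomal membrane that acts on Rag GTPases upstream of mTORC1, and not a classical ligand receptor. It was 15.1-fold higher per the authors' deposited table (log2 3.91, interval 3.47 to 4.36, edgeR FDR 1.70e-09), with implied levels of 60.6 CPM on the positive and 4.02 CPM on the negative side. The gene spans chromosome 1 from 236142505 to 236221865 (hg38, plus strand). The related lysosomal protein GPR137 was 1.63-fold lower per the authors' deposited table (log2 -0.70, edgeR FDR 0.0140). GPR155, a lysosomal cholesterol sensor, had a log2 fold change of 0.66 (edgeR FDR 0.221) per the authors' deposited table.

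Other higher genes ranged from modest changes at measurable levels to large folds at very low ones. GPR153, an orphan receptor, was 3.48-fold higher (log2 1.80, edgeR FDR 2.05e-05) and GPR180 3.35-fold higher (log2 1.74, edgeR FDR 1.49e-06) per the authors' deposited table. GPR161, a receptor of the primary cilium that restrains Hedgehog signalling, was 1.90-fold higher per the authors' deposited table (edgeR FDR 0.00357). GPR85, a conserved brain orphan, was 6.70-fold higher and GPR19 3.59-fold higher per the authors' deposited table (edgeR FDR 0.000248 and 0.0119). GPR158, GPR63 and GPR55 had folds of 31.0, 19.1 and 13.2 higher per the authors' deposited table (edgeR FDR 0.000674, 0.000289 and 0.00103). Their average levels were 1.52, 1.59 and 1.26 CPM, and the implied levels on the negative side 0.0946, 0.159 and 0.177 CPM. Genes read as having no reads there had 0.0252 to 0.0439 CPM. These folds rest on very few reads: the log2 interval of GPR158 ran from 2.87 to 7.04.

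On the lower side GPR176 had the largest change among the GPR-named genes with a measured fold. GPR176, an orphan receptor linked to the circadian clock in the mouse brain and coupled to Gz, was 10.1-fold lower per the authors' deposited table (log2 -3.33, interval -3.82 to -2.84, edgeR FDR 2.45e-08). The implied levels were 46.7 and 4.65 CPM. GNAZ, which encodes the Gz alpha subunit, was 2.10-fold lower per the authors' deposited table (edgeR FDR 0.000360). GPR39, a zinc-sensing receptor, was read as having no reads in 1 group. It had an average of 3.34 CPM per the authors' deposited table (edgeR FDR 4.79e-05). The 3' end of GPR39 overlaps exons of LYPD1 on the opposite strand, and LYPD1 was 20.3-fold lower per the authors' deposited table; whether the counting used strand is not given in the sources used here. GPR162 was 5.78-fold lower per the authors' deposited table (edgeR FDR 0.0330) at an average of 1.42 CPM, and its 3' end shares sequence on the same strand with P3H3, whose log2 fold change was -0.07.

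Proteins of the Golgi that carry a GPR name had small log2 fold changes. GPR107 was 1.32-fold lower per the authors' deposited table (log2 -0.40, interval -0.70 to -0.10, edgeR FDR 0.0263), with the highest average level of the 53 genes on the CPM scale of this 3' end assay. Its relative GPR108 had a log2 fold change of 0.29 (interval -0.19 to 0.77, edgeR FDR 0.297) per the authors' deposited table. GPR89A and GPR89B, near-identical copies of the Golgi pH regulator whose reads may be split between them, had log2 fold changes of -0.60 and 0.21 (edgeR FDR 0.0806 and 0.574) per the authors' deposited table. GPR3, a receptor that raises cyclic AMP without an added ligand, stood at 0.03 (interval -0.81 to 0.88, edgeR FDR 0.952) per the authors' deposited table, and GPR37 at 0.86 (interval -0.03 to 1.75, edgeR FDR 0.0994).

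**Figure D3:**
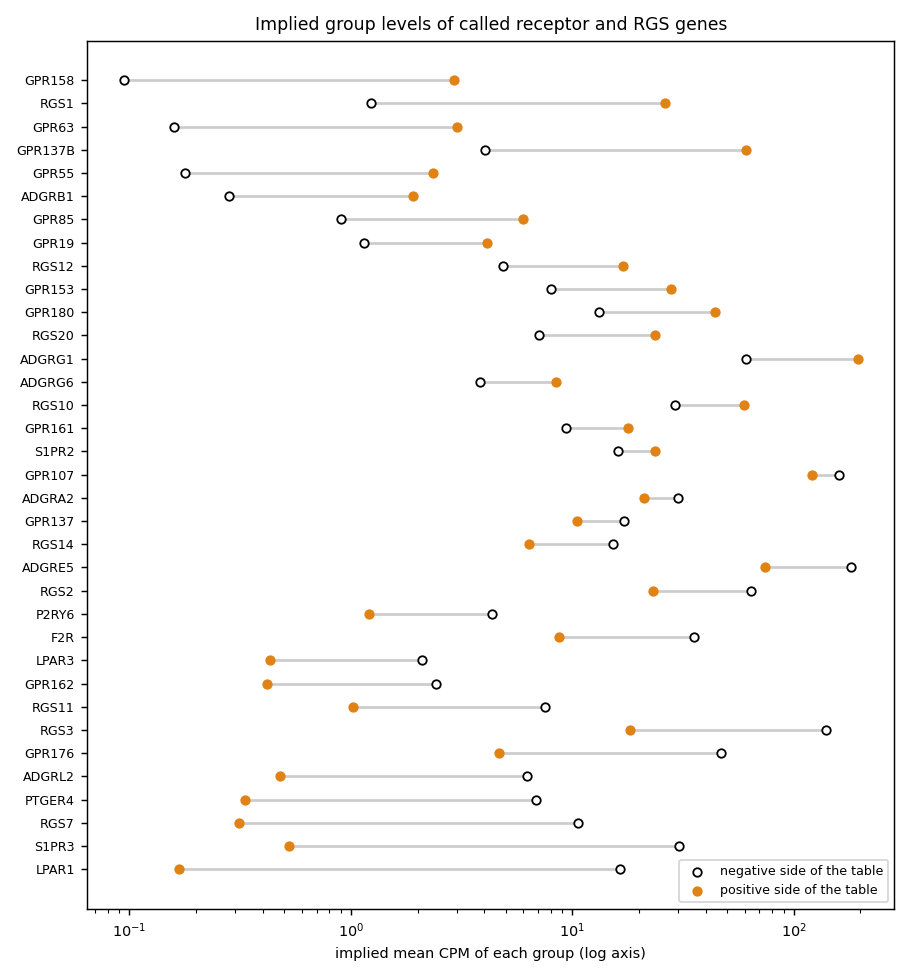
Implied mean level in CPM (log axis) on the negative (open) and positive (filled) side of the table for the 35 called genes with reads in both groups, approximated from the deposited average and fold change. ADGRG1, GPR107, ADGRE5 and RGS3 are the best measured, and 10 genes have 1 side under 0.5 CPM.

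Adhesion receptors split into 3 higher (33.3%), 3 lower (33.3%) and 3 not called among 9, against 24.5% higher and 26.4% lower of all genes. The split was 2 higher and 4 lower when centred on the spike-ins. ADGRG1 (GPR56), which binds collagen III and transglutaminase 2 and is known to restrain melanoma growth and spread in mouse models, was 3.21-fold higher per the authors' deposited table (log2 1.68, interval 1.39 to 1.98, edgeR FDR 1.73e-07). Its implied levels were 195 CPM on the positive and 60.6 CPM on the negative side. Both known partners went the other way: COL3A1 was 107-fold and TGM2 6.97-fold lower per the authors' deposited table (edgeR FDR 6.52e-09 and 1.22e-07). The implied level of COL3A1 on the positive side was only 0.504 CPM. ADGRG6 (GPR126), needed for Schwann cell myelination, was 2.20-fold higher per the authors' deposited table (edgeR FDR 0.0147) and no longer called once centred on the spike-ins. Its partner collagen IV was not called for COL4A1, with a log2 fold change of -0.02, and was 3.10-fold higher for COL4A2 per the authors' deposited table. ADGRB1 (BAI1), a receptor for phosphatidylserine on dying cells, was 6.80-fold higher per the authors' deposited table (edgeR FDR 0.00844) at an average of 1.09 CPM, with a log2 interval from 1.10 to 4.43.

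ADGRE5 (CD97) and ADGRL2 (latrophilin 2) were the larger of the lower changes. ADGRE5, whose ligand is the complement regulator CD55, was 2.46-fold lower per the authors' deposited table (log2 -1.30, interval -1.58 to -1.01, edgeR FDR 1.64e-06), from 182 to 74.1 CPM implied. CD55 itself had a log2 fold change of 0.28 (edgeR FDR 0.268) per the authors' deposited table. ADGRL2, which binds FLRT proteins and teneurins across cell contacts, was 13.0-fold lower per the authors' deposited table (log2 -3.70, interval -4.97 to -2.43, edgeR FDR 0.000124), from 6.22 to 0.478 CPM implied. Its ligand genes FLRT3, TENM2 and TENM3 were 4.86-fold, 9.10-fold and 4.22-fold lower per the authors' deposited table (edgeR FDR 0.000117, 0.0120 and 0.000149). TENM2 averaged only 1.26 CPM. FLRT2 had a log2 fold change of -0.08. In all, 7 of 12 adhesion receptor ligands were lower and 2 higher, or 75.0% called against 50.9% of all genes. The median was -2.18 on the log2 scale. The laminin gene LAMA4 was 5.30-fold lower and C1QL1, a secreted ligand of ADGRB3, was 19.3-fold lower per the authors' deposited table.

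ADGRA2 (GPR124), a co-receptor for WNT7 ligands in brain endothelium, was 1.42-fold lower per the authors' deposited table (log2 -0.51, interval -0.92 to -0.10, edgeR FDR 0.0395). BRF2, which overlaps its 3' end on the opposite strand, had a log2 fold change of -0.16. Its relative ADGRA3 had a log2 fold change of 0.78 (edgeR FDR 0.0512) per the authors' deposited table, just above the threshold. ADGRL1, next to ADGRE5 on chromosome 19 at a distance of 174 kb, had a log2 fold change of -0.37 (edgeR FDR 0.174), and ADGRB2 stood at 0.08 (edgeR FDR 0.904) per the authors' deposited table.

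RGS genes went both ways, also within the R4 and R12 subfamilies. Of 12, 4 were called higher, 5 lower and 3 neither, at a median of -0.58 on the log2 scale. The shares were 33.3% higher and 41.7% lower, against 24.5% and 26.4% of all genes. Each of the 9 called genes changed at least 2-fold. Centred on the spike-ins the split was 4 higher and 6 lower.

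In the R4 subfamily, small RGS proteins that act on Gi and Gq, 1 of 4 genes was higher and 2 were lower. RGS1, best known as a brake on chemokine receptors in lymphocytes, was 21.2-fold higher per the authors' deposited table (log2 4.41, interval 3.58 to 5.23, edgeR FDR 3.31e-07), with implied levels of 26.3 and 1.24 CPM. RGS3 was 7.74-fold lower per the authors' deposited table (log2 -2.95, interval -3.30 to -2.61, edgeR FDR 2.29e-09), from 140 to 18.1 CPM implied. RGS2, which prefers Gq, was 2.77-fold lower per the authors' deposited table (log2 -1.47, interval -1.93 to -1.02, edgeR FDR 4.80e-05), from 64.5 to 23.3 CPM implied. RGS1 (192575763 to 192580024) and RGS2 (192809039 to 192812275) are 229 kb apart on chromosome 1 (hg38), both on the plus strand, and their signs were opposite. RGS5 had a log2 fold change of 0.26 (interval -0.59 to 1.11, edgeR FDR 0.611) per the authors' deposited table.

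Both listed R7 genes were lower. RGS proteins of this subfamily work as obligate partners of the G protein subunit GNB5, and RGS7 is held at the membrane of neurons by GPR158. RGS7 was 34.0-fold lower per the authors' deposited table (log2 -5.09, interval -6.38 to -3.79, edgeR FDR 7.47e-06), from 10.6 to 0.312 CPM implied, and RGS11 was 7.37-fold lower (log2 -2.88, edgeR FDR 0.000229). GNB5 had a log2 fold change of 0.27 (edgeR FDR 0.182) per the authors' deposited table, and GPR158 was higher, as given above. The 3' end of RGS11 overlaps FAM234A on the opposite strand, listed as ITFG3 and 1.77-fold lower per the authors' deposited table.

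The R12 subfamily, whose members act on Gi, had 2 higher genes and 1 lower. RGS12 was 3.49-fold higher (log2 1.80, edgeR FDR 4.08e-05) and RGS10 2.06-fold higher (log2 1.04, interval 0.71 to 1.38, edgeR FDR 7.35e-05) per the authors' deposited table. RGS14 was 2.41-fold lower per the authors' deposited table (log2 -1.27, edgeR FDR 0.00186). In the RZ subfamily, which acts on Gz and Gi, RGS20 was 3.35-fold higher per the authors' deposited table (log2 1.74, interval 1.15 to 2.34, edgeR FDR 0.000117). RGS19 and RGS17 had log2 fold changes of -0.38 and -0.78 (edgeR FDR 0.120 and 0.284) per the authors' deposited table; the interval of RGS17 ran from -2.04 to 0.47.

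**Figure D4:**
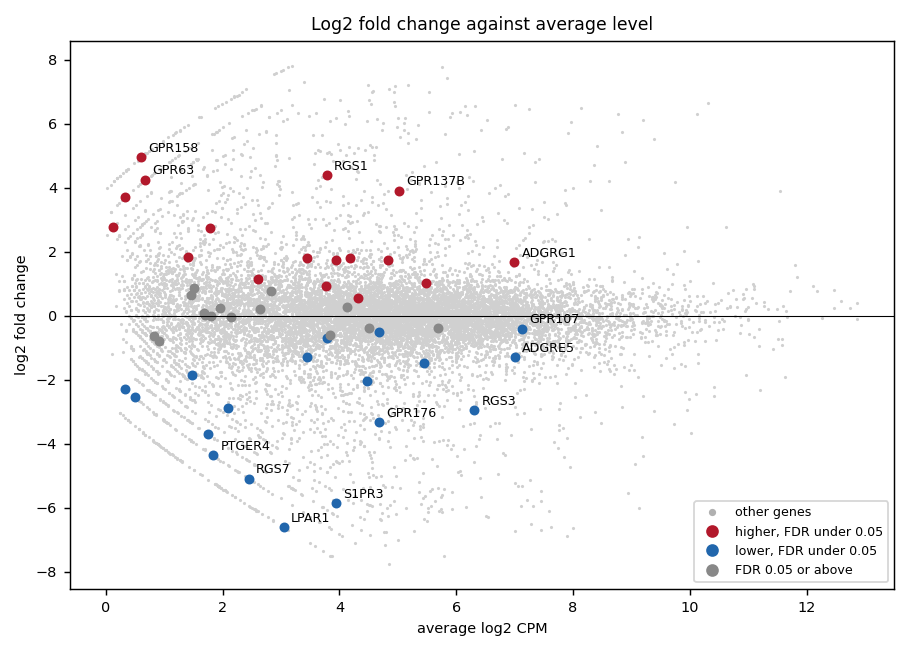
Log2 fold change against average log2 CPM for genes with reads in both groups (small grey points) and for the receptor and RGS genes (large points, coloured by call). LPAR1, GPR158 and GPR63, at an average log2 CPM of 3.05, 0.60 and 0.67, have large changes with very few reads in 1 group. RGS3, GPR137B, GPR176 and ADGRG1 lie well inside the measured range.

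Genes that many receptors share were measured alongside. Of 11 G alpha genes 4 were lower and 1 higher (median -0.25), or 45.5% called against 50.9% of all genes. When centred on the spike-ins 8 were lower and 1 higher. GNAL, a Gs relative, was 7.52-fold higher per the authors' deposited table (edgeR FDR 3.08e-08), and GNA12 and GNA11 were 2.38-fold and 1.78-fold lower. GNAS, the main Gs gene, had a log2 fold change of -0.41 (edgeR FDR 0.0972) per the authors' deposited table. Of 11 G beta and gamma genes 5 were higher and 1 lower (median 0.27), or 54.5% called against 50.9% of all genes. The largest were GNG7 at 6.96-fold, GNB4 at 2.38-fold and GNB3 at 2.17-fold higher per the authors' deposited table. GNB3 lost its call when centred on the spike-ins or with 4 denominator degrees of freedom. With that centring 2 genes of this list were higher and 5 lower. Of 11 genes for receptor kinases, arrestins and alpha-arrestins, 4 were higher and 5 lower, or 81.8% called against 50.9% of all genes. Among them were ARRDC3 at 7.55-fold lower, GRK5 at 2.01-fold lower and ADRBK2 (GRK3) at 3.11-fold higher per the authors' deposited table. ARRDC1 to ARRDC4 and TXNIP, also on this list, are alpha-arrestins, and TXNIP is known for binding thioredoxin. Centred on the spike-ins, 1 was higher and 6 were lower.

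Enzymes of cyclic AMP were mainly higher among those called, 8 against 3 lower of 19, with a median log2 fold change of 0.46. The share called was 57.9%, against 50.9% of all genes. By side, 42.1% were higher and 15.8% lower, against 24.5% and 26.4% of all genes. The split was 6 higher and 8 lower when centred on the spike-ins. The 4 largest folds were in phosphodiesterases, which degrade cyclic AMP: PDE3A was 108-fold, PDE3B 16.8-fold, PDE4B 6.99-fold and PDE8A 4.49-fold higher per the authors' deposited table (edgeR FDR 2.49e-09, 0.000299, 1.56e-07 and 1.77e-05). PDE3B averaged only 1.47 CPM. The implied levels of PDE3A and PDE3B on the negative side were 0.417 and 0.165 CPM, so their folds rest on very few reads. PRKAR1A, a regulatory subunit of protein kinase A, was 2.16-fold higher per the authors' deposited table (edgeR FDR 5.11e-06). Downstream of Gq and G12/13, 5 of 17 genes were higher and 5 lower (median -0.18), or 58.8% called against 50.9% of all genes. When centred on the spike-ins 3 were higher and 10 lower. ARHGEF28, a guanine nucleotide exchange factor, was 41.3-fold lower per the authors' deposited table (edgeR FDR 6.18e-06). Its implied level on the positive side was 0.306 CPM, so this fold rests on very few reads. PRKCA was 4.91-fold lower and AKAP13 2.49-fold higher per the authors' deposited table (edgeR FDR 3.23e-06 and 2.24e-05). Centred on the spike-ins, PTGS2, FLRT2, COL4A1, GNAS and RHOA, none called as deposited, were called lower, and with 4 denominator degrees of freedom PTGS1, TENM2 and ENTPD1 were no longer called. RHOA had a log2 fold change of -0.09 (edgeR FDR 0.567) per the authors' deposited table.

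Promoter sequences from RefSeq (GRCh38.p14, 250 bases before to 50 after a start site) were matched by symbol for 40 of the 53 genes, as 80 start sites. No promoter was matched for ADGRA2, ADGRB1, ADGRE5, ADGRL1, F2R, GPR19, GPR37, GPR89B, GPR155, GPR162, P2RY6, RGS11 and RGS20. Motifs were searched on both strands: the E-boxes CACGTG and CATGTG, to which MITF and its relatives bind, CTTTGAT for TCF/LEF factors, TGANTCA for AP-1 and TGACGTCA for the cyclic AMP response element. All stretches below lie upstream of a RefSeq start site and read 5′ to 3′ on the strand of the gene. All motif matches are in capitals. The stretches belong to 5 of the called genes that hold a match and were chosen after their values were seen. RGS7, whose start sites hold both E-boxes and an AP-1 match, is not shown.
GPR137B (chr1:236142459-236142538, plus strand): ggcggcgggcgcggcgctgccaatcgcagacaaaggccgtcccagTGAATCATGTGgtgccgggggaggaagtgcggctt
ADGRL2 (chr1:81800296-81800375, plus strand): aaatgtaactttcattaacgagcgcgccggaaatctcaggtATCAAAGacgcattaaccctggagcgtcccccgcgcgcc
RGS3 (chr9:113536412-113536491, plus strand): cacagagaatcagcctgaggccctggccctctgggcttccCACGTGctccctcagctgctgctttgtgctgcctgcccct
ADGRG1 (chr16:57628398-57628477, plus strand): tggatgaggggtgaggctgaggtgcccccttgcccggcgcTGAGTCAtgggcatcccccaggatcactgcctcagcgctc
GPR176 (chr15:39829408-39829487, minus strand): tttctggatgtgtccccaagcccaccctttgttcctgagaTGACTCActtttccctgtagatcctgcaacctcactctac

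In GPR137B the capitals join an AP-1 match and a CATGTG match that overlap, the latter 30 bases before the RefSeq start site. The GENCODE span of GPR137B given above begins at 236142505, within the printed stretch, so the CATGTG match lies inside that span. ADGRL2 shows a TCF/LEF match, RGS3 an E-box, and ADGRG1 and GPR176 each an AP-1 match, in each case at 1 of several start sites of the gene. Another start site of ADGRL2, not shown, holds a CATGTG match. Over all members with a promoter, CACGTG was found in 3 of 40 genes, CATGTG in 3, CTTTGAT in 2, TGANTCA in 6 and TGACGTCA in 2. Counted the same way per gene, the shares of the 9443 genes of the table with a promoter were 12.8%, 10.0%, 1.99%, 6.95% and 4.02%. The shares of all 35116 promoter windows were 7.26%, 11.1%, 2.62%, 7.71% and 1.85%. By call, CTTTGAT was in 1 of 14 higher and 1 of 15 lower genes, and CATGTG in 1 and 2. CACGTG was in 0 and 2, TGANTCA in 2 and 2, and TGACGTCA in 1 and 0. A match is a description of letters and not a binding site.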

How the data were processed

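RNA of 6 IGR37 samples was read with a kit that sequences the 3' end of polyadenylated RNA, 500 ng input, per the labels' protocols. The submitters' processing notes name STAR, edgeR and hg38; for versions, counting, annotation and low-count filtering the sources used here give nothing. The authors deposited, per the file headers, log2 fold changes with their linear fold (a ratio), average log2 CPM, the F score, p-value and FDR of each row. The deposited FDR equalled Benjamini-Hochberg values over all 12617 rows (12558 genes, 59 spike-ins) to within a relative 9.01e-13. Depth per library is unknown.

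No new fit was possible, so the authors' edgeR tests were used. The F score and p-value fix the denominator degrees of freedom, 14.03 in most rows. Rows at 12.03 (206 genes, among them PTGFR, GPR39 and F2RL1) were read as genes without reads in 1 group and get no fold. The 4 settings tried per gene were centring on spike-ins, 4 denominator degrees of freedom (the number 6 samples in 2 groups leave), adjustment over gene rows alone and an average log2 CPM of at least 1. The re-centred test was run on simulated data with the true shift given to it. That run checks the computation and not how well spike-ins estimate a shift. All called members are named, and so are the uncalled ones with the highest average level. Other uncalled members, the overlapping neighbours LYPD1, P3H3, BRF2 and ITFG3, and list genes beyond the 3 with the smallest p per list were chosen after their values were seen. The values of 1 list gene that the rule would name are not reported here. Members and lists were chosen with earlier results of these data known. Positions are from GENCODE 44, and 3' overlaps are exons of other genes in the last 500 bases. Python 3.11.15, numpy 2.4.6, pandas 2.3.3, scipy 1.17.1 and matplotlib 3.10.9 were used.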

Additional observations from a re-analysis of the deposited data

How the results depend on the processing

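No paired analysis was possible because the table holds no value per sample, and for the same reason leaving out a replicate, another count filter and another normalization were not run. Every member's call was the same with adjustment over gene rows alone, and for the 45 members with an average log2 CPM of at least 1 with adjustment over such rows. With 4 denominator degrees of freedom 10 of the 38 called members lost the threshold (ADGRA2, ADGRB1, ADGRG6, GPR107, GPR137, GPR162, GPR19, LPAR3, P2RY6 and S1PR2), leaving 13 higher and 15 lower; called genes then numbered 3 adhesion, 2 lysophospholipid, 0 P2Y, 2 G beta and gamma, 5 kinase and arrestin, 7 cyclic AMP, 1 blood and endothelial, and 2 of the lysosomal, Golgi and other GPR-named proteins that are not classical receptors. At an FDR under 0.01 the lysophospholipid receptors had 2 calls and P2Y 0. Leaving out genes with no reads in 1 group left 1 prostanoid and 1 protease-activated receptor called, and an average log2 CPM of at least 1 left 1 blood and endothelial marker. Centred on the spike-ins the median of the members was -0.59 on the log2 scale and 9 G alpha genes were called. The sign turned for ADGRB2 (adjusted p = 0.406), GPR108 (0.291), GPR3 (0.247), GPR89B (0.295), RGS5 (0.512) and S1PR2 (0.974), of which S1PR2 alone was called as deposited; ADGRG6, GPR161 and GPR19 lost and ADGRL1, GPR89A and RGS19 gained a call, all 3 lower. The cause of these changes was not tested beyond the constructions named. Without depth, no detection limit can be given; 10 called members have 1 side under an implied 0.5 CPM.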
